A study of Mus musculus with 19 samples.

Results

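Hnf4a, Hnf4g, Osr2, Pou3f3, Irx1, Irx2, Irx3 and Irx5 are transcription factor genes used to mark the parts of the forming nephron, and they were taken by gene symbol from the deposited tables. All 8 were listed among the 20162 gene names of the table from stage E16.5 (embryonic day) and the 24452 names of the table from stage E14.5. The study sequenced RNA from 19 libraries of kidney cells of CFW mouse embryos, in 7 groups. At E16.5, cells of the nephrogenic zone, the outer rim of the kidney where nephrons form, carried no listed allele and were either left unsorted (NZC) or sorted on SIX2 protein, the factor that marks nephron progenitors, into SIX2+ and SIX2- cells (titled MARIS, a method for RNA of cells stained inside for a protein). Also at E16.5, GFP+ and GFP- cells came from developing kidneys carrying 1 copy of Six2TGC, an allele that expresses GFP and Cre from Six2 regulatory sequence, in both fractions. At E14.5, Tdt+ and Tdt- cells came from Foxd1Cre;Tdt kidneys, in which Foxd1, a gene of stromal progenitors, drives Cre, so that cells with a history of Foxd1 carry a red reporter. Each E16.5 group held 3 libraries and each E14.5 group 2. Whether the libraries are from different animals is not labelled, and the p-values cover only the spread among these libraries, which could be technical.

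The nephron arises from SIX2+ cap mesenchyme, which turns into a renal vesicle and then a comma- and S-shaped body with a proximal-to-distal order. HNF4A and its paralog HNF4G are nuclear receptors, and HNF4A is needed for proximal tubule cells to form. POU3F3, also called BRN1, acts in the future loop of Henle and distal tubule. The Iroquois factors IRX1, IRX2, IRX3 and IRX5 mark the intermediate part of the S-shaped body, and OSR2 is a zinc finger factor of the forming tubule whose paralog OSR1 marks the earlier progenitors. The comparisons below ask where these genes were detected relative to SIX2+ progenitors and Foxd1-lineage stroma.

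Six2 was at 295 to 458 RPKM in SIX2+ libraries and 4.43 to 46.8 in SIX2- libraries, at 312 to 348 in GFP+ and at 2.70 to 16.8 in GFP- libraries, and at 0.650 and 2.14 in Tdt+ against 117 and 96.6 in Tdt- libraries. Estimated depth, in units of 1e+06 reads, was 25.7 to 44.7 in 14 of the 15 E16.5 libraries, 3.24 in NZC library 2 and 8.13 to 29.5 at E14.5. Foxd1 was at 102 and 205 RPKM in Tdt+ and 25.2 and 29.9 in Tdt- libraries, and was also present in SIX2+ libraries, at 16.0 to 30.6. Labelled sorts thus followed Six2 and Foxd1, with the highest Six2 of both negative E16.5 fractions in library 3. RPKM, reads scaled by gene model length and library depth, compares genes within a table. Tests were made on log2(RPKM + 1) with limma over all genes that passed a filter on low values, a gene was called at an adjusted p under 0.05, and differences on that scale understate the change of low genes.

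In the nephrogenic zone all 8 genes were lower in every SIX2+ library than in any SIX2- library, and so were 24.9% of the 12817 genes tested. The filter kept 7 of the 8, all but Hnf4g, and all 7 were called lower, where 24.3% of genes were called in either direction and 15.9% were called lower. Their median difference was -2.74 on the log2 scale, against 0.04 for all tested genes. The summed RPKM of the 8 genes was 2.89, 4.39 and 3.66 in SIX2+ libraries 1 to 3 and 76.7, 101 and 48.3 in SIX2- libraries. In the GFP sort 5 of the 7 were called lower in GFP+ cells, Hnf4a, Osr2, Pou3f3, Irx3 and Irx1, where 32.9% of genes were called and 17.0% were called lower. The sums were 2.97, 5.10 and 1.95 in GFP+, against 19.2, 25.8 and 20.5 in GFP- libraries. At E14.5 the filter kept 4 of the 8, Hnf4a, Osr2, Pou3f3 and Irx3. All 4 were called lower in Tdt+ cells, where 8.43% of genes were called and 7.21% were called lower. Except for Osr2, the kept members of both tables reached an RPKM of 1 only in negative or unsorted libraries. The filter itself thus favoured members with this direction, and the counts called lower carry that limit. In bulk RNA, fewer cells of a type and less RNA per cell cannot be told apart.

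**Figure D1:**
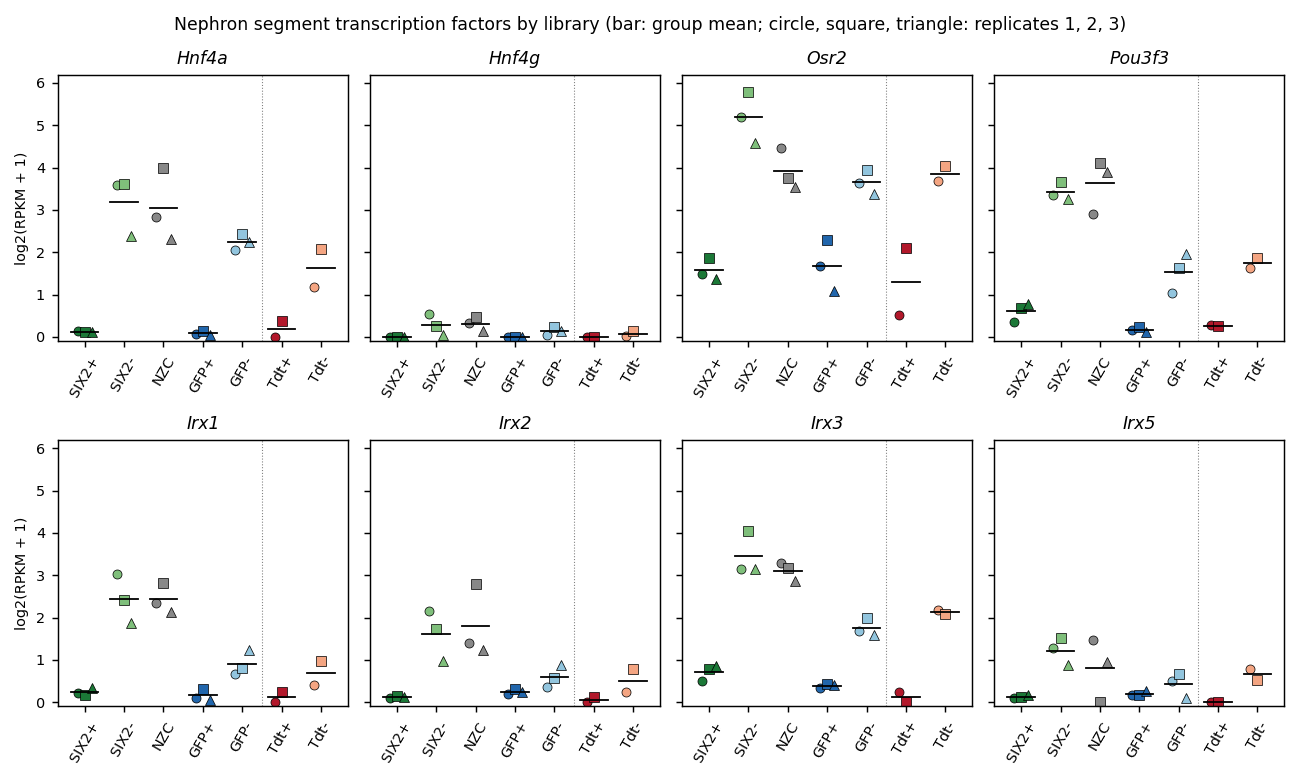
Expression of the 8 genes in each of 19 libraries as log2(RPKM + 1), by group along the horizontal axis; each symbol is a library, the bar is the group mean of the plotted values, and the dotted line parts the E16.5 from the separately normalised E14.5 libraries. The SIX2+ and GFP+ libraries lie below 1 for every gene except Osr2, and Hnf4g stays below 1 in all libraries.

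The stretch before the upstream RefSeq start site of Hnf4a (mm10 chromosome 2, 163506808 to 163572910, plus strand, protein coding, ENSMUSG00000017950.16) is shown because that gene had the widest ratio between SIX2- and SIX2+ cells among the 7 tested members. Hnf4a is known to be read from an upstream promoter, P2, and a downstream one, P1, and the gene-level values do not part them. RefSeq promoter windows, of build GRCm38.p6, the assembly also called mm10, were at hand for 4 of the 8 genes. Each was searched on both strands over 250 bases before the start for letters that included CTTTGA (TCF/LEF), TGGGAA (RBPJ, the DNA-binding partner of Notch), CAAAGTCCA (HNF4) and ATTTGCAT (octamer, the letters of POU factors), with matches in capitals in the stretches shown here and for other genes. The stretch covers chr2:163506607-163506807, plus strand, and held none of the letters searched; the window of the downstream start is not described here.
Hnf4a upstream start: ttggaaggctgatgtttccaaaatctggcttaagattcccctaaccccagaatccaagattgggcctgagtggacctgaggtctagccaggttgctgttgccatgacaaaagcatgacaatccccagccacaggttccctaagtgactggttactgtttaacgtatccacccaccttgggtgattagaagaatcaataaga
Of 32851 promoter windows of the same length, 0.384% held the HNF4 letters and 13.8% the TCF/LEF letters. A match is a description of the letters, not a bound site.

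Hnf4a was at 0.102, 0.0751 and 0.0842 RPKM in SIX2+ libraries 1 to 3 and at 11.1, 11.3 and 4.19 in SIX2- libraries. It was at 0.0454, 0.110 and 0.0266 in GFP+ and at 3.14, 4.41 and 3.71 in GFP- libraries, and at 6.16, 14.9 and 4.0 in NZC. All libraries of the 2 progenitor fractions were below all other E16.5 libraries and SIX2- library 3 and NZC library 3 were the lowest of their groups. The mean was 102-fold higher in SIX2- than in SIX2+ cells and 61.8-fold higher in GFP- than in GFP+ cells, with log2 differences of -3.08 ± 0.37 (SE, adjusted p = 2.39e-05, limma) and -2.16 ± 0.37 (adjusted p = 0.00042, limma). The SIX2+ values rest on an estimated 12 to 16 reads a library and the GFP+ values on 4 to 19. At E14.5 Hnf4a was at 0 and 0.306 in Tdt+ and at 1.28 and 3.19 in Tdt- libraries, which did not overlap (-1.43 ± 0.33, adjusted p = 0.0345, limma). That call was lost without Tdt- library 2 (-1.0). It was also lost without the filter, with a pseudocount of 5 and with quantile normalisation (adjusted p 0.0624 to 0.232, limma).

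Hnf4g (chromosome 3, 3508030 to 3658052, plus strand) was near the floor throughout. It was at 0.452, 0.199 and 0.0296 RPKM in SIX2- and 0.264, 0.385 and 0.0945 in NZC libraries, and at 0.0398, 0.167 and 0.10 in GFP- libraries. It was listed at 0 in 2 of 3 SIX2+ libraries, all 3 GFP+ libraries and both Tdt+ libraries, and at 0.00523 in SIX2+ library 2. SIX2- library 3 was again the lowest of its group. It passed the filter in neither table, and in the libraries where both paralogs were above 0 Hnf4a stood 14.4 to 141 times higher per length. Without a filter its difference between SIX2+ and SIX2- cells was -0.28 (adjusted p = 0.0969, limma), which was not called. Its highest value stood for an estimated 28 reads.

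Osr2 (chromosome 15, 35296098 to 35303305, plus strand) was the most abundant of the 8 per length in 17 of the 19 libraries. It was at 1.80, 2.67 and 1.57 RPKM in SIX2+ and at 35.9, 54.4 and 23.1 in SIX2- libraries, an 18.8-fold difference of means (-3.62 ± 0.34, adjusted p = 2.32e-06, limma). It was at 2.20, 3.88 and 1.11 in GFP+ and at 11.5, 14.3 and 9.44 in GFP- libraries, a 4.91-fold difference of means (-1.98 ± 0.34, adjusted p = 0.000444, limma). No positive library reached a negative one in either sort, yet the positive E16.5 fractions kept a level that the other 7 genes did not have there. Osr2 was the one member called between SIX2- and unsorted NZC, where it was at 20.9, 12.6 and 10.6 (difference 1.28 ± 0.34, adjusted p = 0.0303, limma; 11.1% of genes were called and 5.16% were called higher). The groups did not overlap, but the call was lost without any one of SIX2- libraries 1 and 2 and NZC libraries 2 and 3 (0.98 to 1.27, adjusted p 0.0580 to 0.135, limma). At E14.5 it was at 0.432 and 3.26 in Tdt+ and 11.8 and 15.3 in Tdt- libraries. Most of the Tdt+ signal came from library 2, which held more Six2 but less Osr1 than library 1. The difference was -2.54 ± 0.47 (adjusted p = 0.0157, limma) and was not called without either Tdt- library (adjusted p = 0.0844 and 0.146, limma) or without the filter.

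The paralog Osr1 (chromosome 12, 9570116 to 9581500, plus strand), which is not one of the 8, had the opposite order at E16.5. It was at 49.7, 36.9 and 60.2 RPKM in SIX2+ and 2.86, 3.06 and 8.65 in SIX2- libraries (3.20 ± 0.35, adjusted p = 1.06e-05, limma). In the GFP sort it was at 52.1, 51.7 and 60.3 against 3.41, 3.33 and 7.13 (3.37 ± 0.35, adjusted p = 4.55e-06, limma). Per length, Osr2 stood at 0.0260 to 0.0723 of Osr1 in SIX2+ and 0.0184 to 0.0750 in GFP+ libraries, but at 2.67 to 17.7 times Osr1 in SIX2- and 1.32 to 4.31 times in GFP- libraries. The order of the paralogs thus turned over between the positive and negative cells of both sorts, and in unsorted NZC the ratio was 0.500 to 1.64, which overlapped the range of GFP- libraries. At E14.5 both were lower in Tdt+ cells, with Osr1 at 3.88 and 1.59 against 22.1 and 14.2 (-2.40 ± 0.36, adjusted p = 0.00703, limma). That call of Osr1 was lost without Tdt- library 1 (-2.09) and without the filter (adjusted p = 0.0891, limma).

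**Figure D2:**
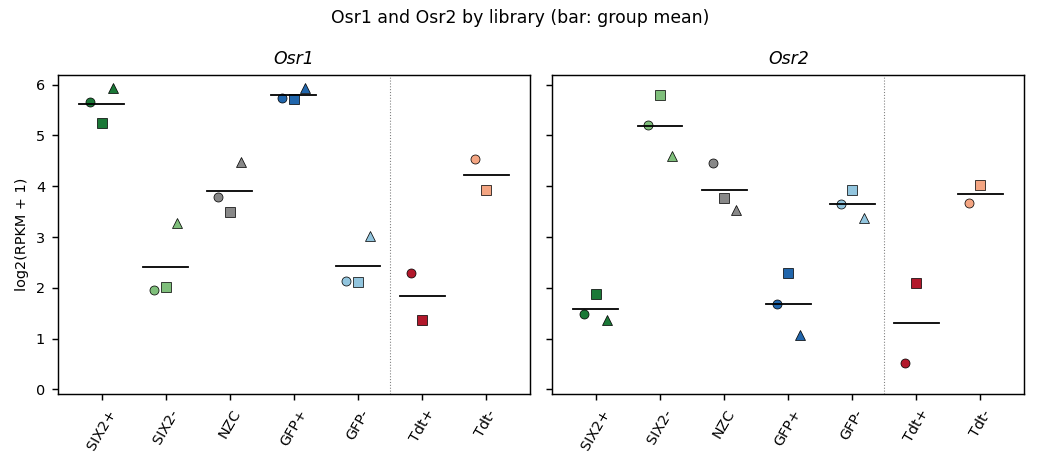
Osr1 (left) and Osr2 (right) in each library as log2(RPKM + 1), by group; symbols are libraries, bars are group means, and the dotted line parts the E16.5 from the E14.5 table. Osr1 is highest in the SIX2+ and GFP+ libraries (36.9 to 60.3 RPKM), where Osr2 lies at 1.11 to 3.88.

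Pou3f3 (chromosome 1, 42695768 to 42703176, plus strand) starts 926 bases from Pantr1, a long noncoding RNA gene on the other strand, and the stretch between them that adjoins Pou3f3 is shown because the values of both genes are given. It covers chr1:42695518-42695767, plus strand, and its capitals mark a match to the RBPJ letters, on the strand of the gene, 45 to 40 bases before the start.
Pou3f3: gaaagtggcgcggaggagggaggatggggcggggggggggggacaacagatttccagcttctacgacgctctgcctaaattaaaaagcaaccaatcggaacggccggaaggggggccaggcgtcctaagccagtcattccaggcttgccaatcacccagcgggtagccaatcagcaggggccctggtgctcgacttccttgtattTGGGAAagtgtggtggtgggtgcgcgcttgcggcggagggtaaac
The RBPJ letters were found in 21.6% and the octamer letters in 1.60% of all windows, and this window held no octamer.

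Pou3f3 was at 0.274, 0.606 and 0.715 RPKM in SIX2+ and at 9.26, 11.6 and 8.64 in SIX2- libraries, an 18.5-fold difference of means (-2.82 ± 0.29, adjusted p = 5.29e-06, limma). It was at 0.115, 0.167 and 0.0911 in GFP+ and at 1.04, 2.10 and 2.89 in GFP- libraries, a 16.1-fold difference (-1.37 ± 0.29, adjusted p = 0.0022, limma). Neither pair of groups overlapped, and in NZC, at 6.45, 16.3 and 13.8, library 1 was the lowest. Every SIX2+ library was above every GFP+ library, by 4.27-fold between means, but the difference of 0.44 ± 0.29 was not called (adjusted p = 0.529, limma; 3.07% of genes were called). At E14.5 it was at 0.206 and 0.194 in Tdt+ and at 2.07 and 2.64 in Tdt- libraries (-1.48 ± 0.23, adjusted p = 0.00788, limma). Quantile normalisation ended that call (-0.83, adjusted p = 0.0835, limma).

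Pantr1 had its highest group means in NZC and SIX2- cells, as Pou3f3 did, and lay below Pou3f3 in every E16.5 library except GFP+ library 2. It was at 0.134, 0.0400 and 0.0845 RPKM in SIX2+ and 3.33, 4.35 and 3.35 in SIX2- libraries (-2.10 ± 0.31, adjusted p = 0.000155, limma). In SIX2- libraries Pou3f3 stood 2.58 to 2.78 times above it per length. In the GFP sort it was at 0, 0.282 and 0 against 0.152, 0.576 and 0.489, groups that overlapped (-0.36 ± 0.31, adjusted p = 0.403, limma). It was listed at 0 in both Tdt+ libraries and was at 0.719 and 0.623 in Tdt- libraries. The gene models of Pantr1 and Pou3f3 do not overlap.

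The 4 Iroquois genes lie in 2 clusters, and the Irx2 and Irx3 starts are shown as those of the clusters with a window at hand. Irx1 (chromosome 13, 71957921 to 71963723, minus strand) and Irx2 (chromosome 13, 72628820 to 72634198, plus strand) start 665 kb apart. Irx3 (chromosome 8, 91798525 to 91802067, minus strand) and Irx5 (chromosome 8, 92357625 to 92376286, plus strand) start 556 kb apart. The Irx2 stretch covers chr13:72628570-72628819, plus strand, and holds a match to the RBPJ letters on the opposite strand, 163 to 158 bases before the start. The Irx3 stretch, chr8:91801719-91801748, minus strand, read on the strand of the gene, holds 1 on the opposite strand, 82 to 77 bases before the RefSeq start, and is kept to 30 bases because that window overlaps annotated exons.
Irx2: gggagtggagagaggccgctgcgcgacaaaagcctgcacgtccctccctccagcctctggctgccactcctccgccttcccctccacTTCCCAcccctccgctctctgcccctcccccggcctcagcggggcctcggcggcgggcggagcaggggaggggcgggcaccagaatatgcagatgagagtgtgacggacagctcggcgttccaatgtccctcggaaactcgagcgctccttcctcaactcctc
Irx3: aagaaccgcagtTTCCCAgcgtccaggact
With Pou3f3, 3 of the 4 genes thus held the RBPJ letters, in 1 window each. These 4 genes have 5 windows, and 21.6% of all windows hold the letters.

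Irx3 was the highest of the 4 in 18 of 19 libraries. It was at 0.418, 0.721 and 0.810 RPKM in SIX2+ and at 7.84, 15.5 and 7.93 in SIX2- libraries, a 16.1-fold difference of means (-2.74 ± 0.23, adjusted p = 7.18e-07, limma). It was at 0.268, 0.347 and 0.328 in GFP+ and at 2.19, 2.96 and 2.03 in GFP- libraries (-1.36 ± 0.23, adjusted p = 0.000356, limma), and at 8.81, 8.04 and 6.24 in NZC. The groups of both sorts were apart, and Irx3 was the one member in which SIX2- library 3 was not the lowest of its group. At E14.5 it was at 0.178 and 0 in Tdt+ and at 3.51 and 3.26 in Tdt- libraries (-2.01 ± 0.23, adjusted p = 0.00268, limma), and it stayed called under each of 10 alternatives, with adjusted p up to 0.0438 (limma). Irx3os, a noncoding gene on the other strand, overlaps Irx3 by 1653 bases, and whether reads were counted by strand is not given in the sources used here.

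Irx1 was at 0.160, 0.117 and 0.269 RPKM in SIX2+ and at 7.19, 4.33 and 2.65 in SIX2- libraries, a 26.0-fold difference of means (-2.20 ± 0.27, adjusted p = 2.78e-05, limma). It was at 0.0798, 0.249 and 0.0301 in GFP+ and at 0.592, 0.741 and 1.37 in GFP- libraries, and at 4.08, 6.09 and 3.35 in NZC. Positive and negative groups did not overlap in either sort. The SIX2+ values of Irx1 rest on an estimated 10 to 27 reads a library and its GFP+ values on 2 to 23. The GFP difference of -0.75 ± 0.27 was called narrowly (adjusted p = 0.0451, limma) and not without any single one of the 6 libraries compared (adjusted p 0.0538 to 0.159, limma). Irx2 was at 0.0691, 0.107 and 0.0872 in SIX2+ and at 3.47, 2.29 and 0.972 in SIX2- libraries (-1.50 ± 0.36, adjusted p = 0.00625, limma), and at 1.62, 5.96 and 1.35 in NZC, where library 2 was the highest. In the GFP sort it was at 0.142, 0.232 and 0.176 against 0.283, 0.493 and 0.836, groups that did not overlap but differed by -0.36 ± 0.36, which was not called (adjusted p = 0.472, limma). Irx1 stood at 1.90 to 2.73 times Irx2 per length in SIX2- and 1.5 to 2.09 times in GFP- libraries.

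Irx5 was the lowest of the 4 in the SIX2- group mean. It was at 0.0760, 0.0909 and 0.125 RPKM in SIX2+ and at 1.43, 1.86 and 0.824 in SIX2- libraries (-1.09 ± 0.30, adjusted p = 0.0145, limma). This call was lost without SIX2- library 1 (adjusted p = 0.0505, limma) or 2 (adjusted p = 0.0704, limma) and, as for Irx2, with quantile normalisation (adjusted p = 0.0773 and 0.0796, limma). In the GFP sort it was at 0.117, 0.117 and 0.194 against 0.415, 0.580 and 0.0794, and it was the one member whose groups overlapped there (-0.23 ± 0.30, adjusted p = 0.588, limma), where 24.4% of tested genes were lower without overlap in GFP+ libraries. In NZC it was at 1.79, 0 and 0.921, and in the shallow library 2 a single read would stand for 0.121 RPKM. At E14.5 Irx1, Irx2 and Irx5 did not pass the filter. Irx1 was at 0 and 0.173 in Tdt+ against 0.333 and 0.972 in Tdt-, Irx2 at 0 and 0.0897 against 0.185 and 0.714, and Irx5 at 0 in both Tdt+ libraries against 0.735 and 0.440. The Tdt+ values of Irx1 and Irx2 rest on at most 3 estimated reads. The remaining Iroquois genes of these clusters, Irx4 and Irx6, were at no more than 0.382 and 0.0956 RPKM in any E16.5 library.

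Unsorted NZC and SIX2- libraries overlapped in all of the 8 genes except Osr2, where 29.1% of the tested genes did not overlap. Against NZC, 6 of the 7 tested genes were called lower in SIX2+ cells, where 36.6% of genes were called and 18.5% were called lower. Irx5 was not, at -0.67 ± 0.30 (adjusted p = 0.0884, limma), and without NZC library 2 it was called (-1.08, adjusted p = 0.0022, limma). Between SIX2- and NZC the differences of the 6 members other than Osr2 ran from -0.20 for Pou3f3 to 0.42 for Irx5, with intervals reaching from -0.95 to 1.05. Six2, by contrast, was at 65.2 to 166 RPKM in NZC and so 5.10-fold above SIX2- cells. The comparison of SIX2- cells with NZC shares its SIX2- libraries with the SIX2 sort.

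SIX2- cells of the nephrogenic zone held more of these genes than GFP- cells of Six2TGC kidneys. Of the 7 tested, 4 were called higher in SIX2- cells, where 10.1% of genes were called and 5.70% were called higher. These were Pou3f3 (1.89 ± 0.29, adjusted p = 0.00248, limma), Irx3 (1.70 ± 0.23, adjusted p = 0.00103, limma), Osr2 (1.54 ± 0.34, adjusted p = 0.0153, limma) and Irx1 (1.53 ± 0.27, adjusted p = 0.00471, limma). Pou3f3 was 4.89-fold and Irx1 5.25-fold higher between means, against 2.36-fold for Hnf4a, which overlapped between the groups and was not called (0.96 ± 0.37, adjusted p = 0.106, limma). With the replicate block, which matches these libraries by number alone, Hnf4a was called (adjusted p = 0.0499, limma). Irx2 (1.01 ± 0.36) and Irx5 (0.80 ± 0.30) did not overlap and were not called. All 7 were called without NZC library 2, which enters only through the shared estimate of the spread, and Osr2 was lost without SIX2- library 2 or GFP- library 1. The fractions also differ in genotype, in source (nephrogenic zone or developing kidney as labelled) and in the method of sorting, which cannot be told apart.

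The difference between the sorts was tested directly as the SIX2 sort minus the GFP sort. All 7 tested members had a larger drop in the SIX2 sort, by -0.86 for Irx5 to -1.65 ± 0.48 for Osr2 on the log2 scale, and 5 of the 7 had an unadjusted p under 0.05. None was called by limma after adjustment, with Irx3 lowest at an adjusted p of 0.135 (limma), where 0.140% of genes were called. With the replicate number as a block Osr2 was called (-1.65, adjusted p = 0.0428, limma), and in a fit of the 4 groups alone Pou3f3 was called (-1.45, adjusted p = 0.0416, limma). Between the 2 positive fractions none of the 7 was called and none had an unadjusted p under 0.05, with differences from -0.12 for Irx2 to 0.44 for Pou3f3.

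**Figure D3:**
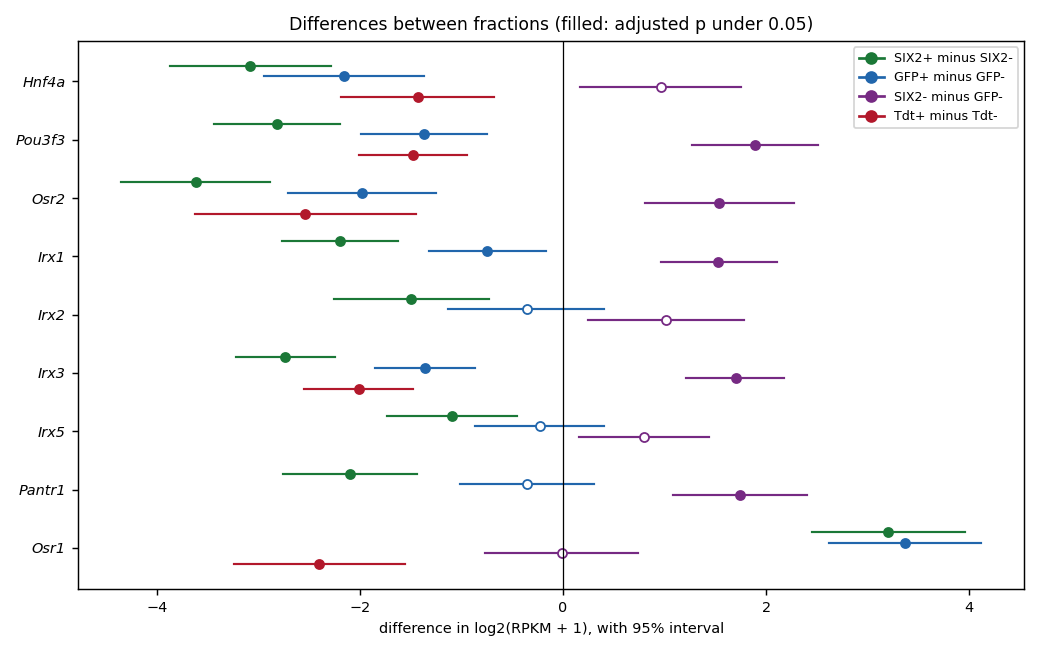
Differences in log2(RPKM + 1), with 95% intervals, for the 7 members tested at E16.5 and for Pantr1 and Osr1, in 4 comparisons told apart by colour; filled points have an adjusted p under 0.05 and members that did not pass the E14.5 filter have no red point. The members lie left of 0 in the 3 sorts and right of 0 for SIX2- minus GFP-, and Osr1 lies right of 0 in the SIX2 and GFP sorts.

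Among themselves the 8 genes kept different proportions in different groups. Osr2 made up 49.4% ± 3.67 of their summed RPKM in SIX2- and 53.9% ± 7.1 in GFP- libraries, but 29.2% ± 11.4 in NZC (SD, n = 3 each). In NZC libraries 2 and 3 Pou3f3 was the largest, at 25.4% and 34.2%, and NZC library 2 also had the largest Hnf4a share of that group, at 23.1%. Hnf4a took 17.2% ± 0.902 in GFP- and 11.4% ± 2.93 in SIX2- libraries, and Pou3f3 9.21% ± 4.45 and 13.8% ± 3.57 (SD, n = 3 each). The proportions in SIX2+, GFP+ and Tdt+ libraries rest on few reads and are shown for completeness.

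**Figure D4:**
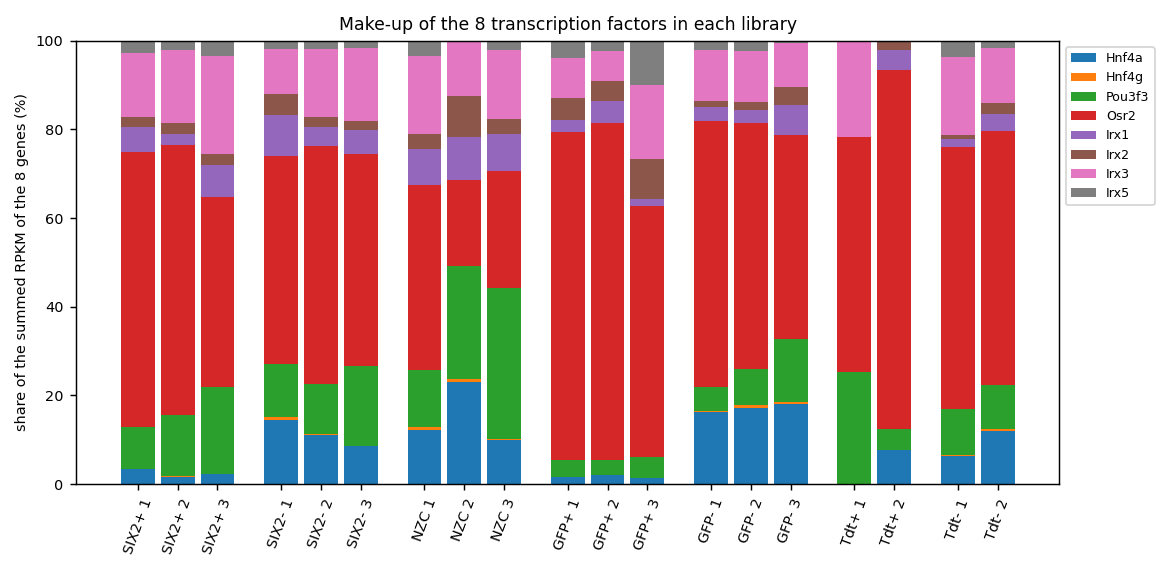
Share of each of the 8 genes in their summed RPKM (vertical axis, percent), 1 bar for each of 19 libraries labelled by group and replicate. Osr2 is the largest share in 17 of 19 libraries; in NZC libraries 2 and 3 it is exceeded by Pou3f3.

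Genes with the most similar pattern were found for the 4 members with enough level and range, as the mean absolute difference of centred log2(RPKM + 1) over the 15 E16.5 libraries among 9489 candidate genes. Closest to Hnf4a were Pdzk1, a scaffold of apical transporters of the proximal tubule (0.16), Folr1, a folate receptor (0.17), and Cpn1, a carboxypeptidase (0.22). Pdzk1 had means of 12.4 RPKM in SIX2- and 0.141 in SIX2+ cells, close to the 8.87 and 0.0871 of Hnf4a. Closest to Pou3f3 were Cldn7 (0.17) and Cldn6 (0.27), tight junction proteins, and Cdh1, the epithelial cadherin (0.29). Closest to Osr2 were the homeobox gene Emx2 (0.25), Car4, a membrane carbonic anhydrase (0.30), and R3hdml (0.33), and closest to Irx3 were Hs3st3b1, a heparan sulfate sulfotransferase (0.25), Cldn6 (0.25) and Cpb2, a carboxypeptidase (0.27). Of the pairs of members, Irx1 and Irx2 were the nearest (0.34), then Pou3f3 and Irx3 (0.36), while Pou3f3 and Irx5 were the farthest apart (1.03). The measure also takes in the size of a change, and group means spanned 1.09 (log2) for Irx5 against 3.46 for Pou3f3. Irx1, Irx2 and Irx5 did not have the level and range asked of the 4 members above. These measures describe libraries that share the sort and its groups, and carry no test.

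**Figure D5:**
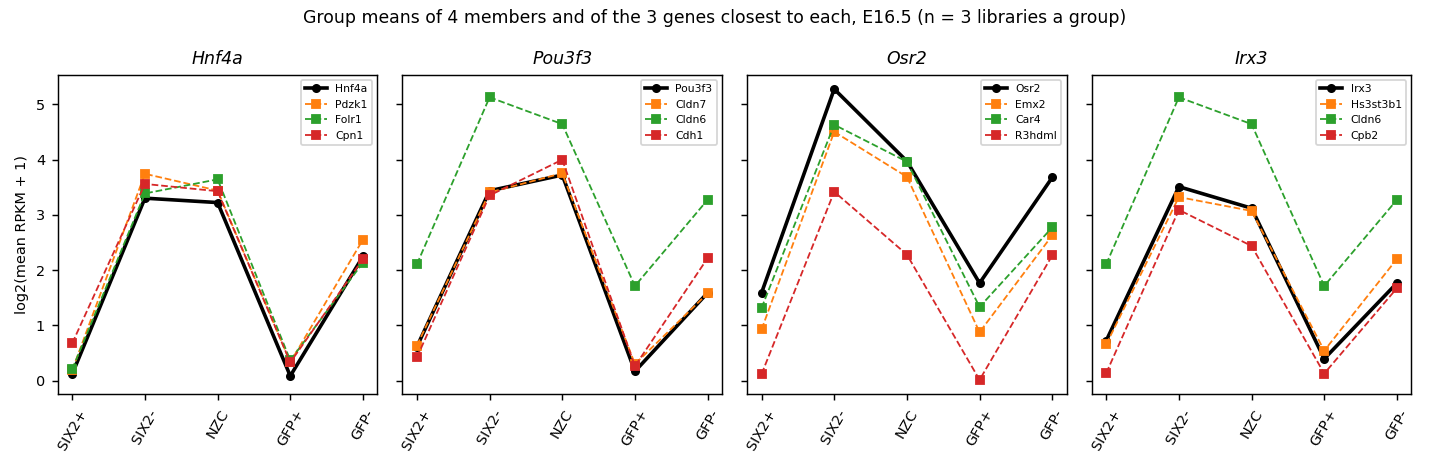
Group means as log2(mean RPKM + 1) of Hnf4a, Pou3f3, Osr2 and Irx3 (black) and of the 3 genes nearest to each by pattern (dashed), over the 5 E16.5 groups along the horizontal axis, n = 3 libraries a group. Cldn7 lies on the line of Pou3f3, and Cldn6 keeps a higher level in every group, with SIX2- above NZC where Pou3f3 has NZC above SIX2-.

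Other genes of nephron patterning, listed with earlier results of these data known, went in both directions. Of 21 other regulators, 19 were tested at E16.5, and 10 were called lower and 4 higher in SIX2+ than in SIX2- cells (median -1.26), while 5 were lower and 7 higher in GFP+ than in GFP- cells (median -0.42). Emx2, a homeobox factor of the urogenital tract, differed by -3.51 ± 0.28 in the SIX2 sort (adjusted p = 5.49e-07, limma), and Mecom by -2.62 in the SIX2 sort and -2.45 in the GFP sort. Pax2, a factor of the progenitors and the ureteric bud, was higher in GFP+ cells (3.57 ± 0.49, adjusted p = 5.88e-05, limma). At E14.5, 8 of 13 tested regulators were called lower in Tdt+ cells, led by Pax2 (-5.92), Pax8 (-4.59) and Lhx1 (-3.60). The 1 called higher was Mecom, at 28.7 and 37.3 RPKM in Tdt+ against 7.9 and 11.7 in Tdt- libraries.

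Genes of the early nephron, 15 of them, were called lower in 7 and higher in 2 cases in SIX2+ cells, and in 3 and 3 in GFP+ cells. Dkk1, a Wnt antagonist, was lower in both, by -4.86 ± 0.17 and -3.92 ± 0.17 (adjusted p = 4.9e-10 and 1.7e-09, limma), and Jag1, a Notch ligand, was lower in SIX2+ cells (-2.08). Cxcr4, a chemokine receptor, was higher in both (2.10 and 3.06). In Tdt+ cells 12 of the 15 were called lower, with Wnt4, an inducer of nephrons, at -4.35. The 1 called higher was Dkk1, at 16.9 and 23.7 RPKM in Tdt+ against 8.19 and 9.04 in Tdt- libraries.

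Of 16 proximal tubule genes 10 were tested at E16.5, and 9 were called lower in SIX2+ and 4 in GFP+ cells, with none higher. Pdzk1, a scaffold of brush border transporters, differed by -3.38 and -2.20, and Slc34a1, a phosphate transporter, by -2.62 and -1.39. The GFP call of Slc34a1 (adjusted p = 0.0346, limma) was lost without any single one of the 6 libraries compared (adjusted p 0.0538 to 0.108, limma). The summed RPKM of all 16 was 102, 64.4 and 24.7 in SIX2- libraries 1 to 3 and 56.7, 177 and 32.4 in NZC libraries. The libraries with most Hnf4a within NZC and least within SIX2- were also those with most and least of this list. Within SIX2-, however, Hnf4a was highest in library 2 and this list in library 1. Of 14 loop and distal genes only 4 were tested, of which 3 were called lower in SIX2+ cells, among them Sostdc1 (-2.02), a BMP and Wnt antagonist, and 2 in GFP+ cells, of which Sostdc1 was lost without GFP- library 1 or GFP+ library 3 (adjusted p = 0.0715 and 0.0535, limma). Of the E14.5 genes of these lists, 2 of 3 proximal genes were called lower in Tdt+ cells (Lrp2 and Gatm, -1.74 and -1.43), both lost without Tdt- library 2 (adjusted p = 0.0668 and 0.062, limma), and of 2 loop and distal genes Ptger3 was called higher (1.04, adjusted p = 0.0499, limma), a call lost without either Tdt- library.

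Markers of other cells moved with the same sorts. All 12 stromal markers were called lower in SIX2+ cells, with a summed RPKM of 38.6 to 50.5 against 1337 to 2148 in SIX2- libraries, and all 12 in GFP+ cells, at 57.1 to 78.0 against 2593 to 3582. All 7 endothelial markers were lower in both positive fractions (sums of 2.29 to 5.62 against 56.8 to 158, and 1.69 to 7.11 against 44.1 to 84.6), as were all 7 leukocyte markers (0.798 to 10.2 against 75.1 to 103, and 0.247 to 4.53 against 75.0 to 107). Of 8 podocyte markers 6 and 5 were called lower, with sums of 4.13 to 5.66 against 25.6 to 84.9 and 7.35 to 9.76 against 24.2 to 103. Of 8 ureteric markers 5 were tested, 4 lower and 1 higher in each sort. The sums were 29.6 to 37.9 against 43.2 to 52.7 and 19.5 to 22.6 against 22.5 to 34.4. The 1 higher was Hoxb7, with means of 33.3 RPKM in SIX2+ against 19.9 in SIX2- and 18 in GFP+ against 8.63 in GFP- cells. Hoxb7 made up most of the sums in the positive fractions, so these sums do not show how far the other 4 fell. The 7 erythroid markers summed to 0.286 to 1.77 in SIX2+ and 4.0 to 16.4 in SIX2- libraries, and none of the 7 was called there. In the GFP sort all 7 were called lower, with sums of 11.3 to 50.9 in GFP+ and 819 to 8469 in GFP- libraries. Hbb-y was at 0 in all GFP+ libraries. The part of these cells in the differences of the 8 genes was not tested.

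Cap mesenchyme markers ran the other way, with all 8 called higher in both positive fractions. Their sum was 46.9, 76.6 and 204 in SIX2- libraries 1 to 3. Library 3, with the highest sum and the most Six2, had the lowest value of 7 of the 8 segment genes. NZC library 3, with the highest cap sum of its group (641), was lowest in 6 of the 8. GFP- library 3 also had the highest cap sum of its group (62), but was lowest in 3 and highest in 3 of the 8. In Tdt+ libraries the cap sum was 10.3 and 15.2 against 478 and 395 in Tdt- libraries, and 6 of 16 proximal and 8 of 14 loop and distal genes were at 0 in both Tdt+ libraries, against 1 and 2 in both Tdt- libraries. Estimated depth was 9.33 and 8.13 in Tdt+ and 29.5 and 25.7 in Tdt- libraries, in units of 1e+06 reads. The stromal sum at E14.5 was 1879 to 2766 in Tdt+ and 2531 to 3475 in Tdt- libraries, so that it did not part the fractions there. These marker levels were likewise not tested against the 8 genes.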

How the data were processed

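The authors deposited 2 tables of 1 value per gene and library, titled TPM. The deposited values behave as RPKM: column sums ran from 339454 to 429529 (E16.5) and from 342196 to 453324 (E14.5), while sums weighted by transcript length varied by 1.83% and 1.31% (coefficient of variation). TopHat2, Partek and mm10 are named, without versions or roles, per the submitters' processing notes; the sources used here give neither the annotation nor the strand setting. RNA came from the Recoverall or Rneasy micro kits with Kapa stranded mRNA libraries, per the labels' protocols. Tables were normalised separately and tested separately.

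Values were compared as log2(RPKM + 1) with limma 3.58.1 in R 4.3.3 (eBayes with trend, two-sided, Benjamini-Hochberg over all genes tested). A gene was tested where 3 or more E16.5 libraries (12817 genes) or 2 or more E14.5 libraries (12383 genes) reached an RPKM of 1. The E16.5 fit held 15 libraries and 5 group means (10 residual degrees of freedom); 4 libraries at E14.5 left 2 of them. The script was tested on simulated data. Depth was estimated from what 1 read is worth among low values and is approximate; precision of low genes is limited by it. Gene lengths and positions came from GENCODE M21 (GRCm38, that is mm10), and promoters from RefSeq GRCm38.p6.

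Members, lists and tests were chosen with earlier results of these data known. Named are the 8 members, their neighbours and Osr1, Six2 and Foxd1, up to 4 called genes of each list with the largest change per sort, and the 3 genes nearest by pattern to each member with a group mean of at least 5 and a range of at least 2 (log2). Some results that the rule names are not reported here. Same-numbered libraries correlated in their deviations from group means for SIX2+ and SIX2- (0.64, 0.28 and 0.68), GFP+ and GFP- (0.45, 0.44 and 0.39), SIX2- and NZC (0.42, 0.19 and 0.50) and SIX2- and GFP- libraries (0.46, 0.44 and 0.55), and were taken as paired there from the data, as an alternative fit. The pairing rests on replicate numbers and these correlations. SIX2- and GFP- cells came from kidneys of different genotype, so their libraries cannot share a kidney. The block covered all libraries of a table, also SIX2+ and NZC (0.28, 0.06 and 0.30) and SIX2+ and GFP+ (0.40, -0.02 and 0.58), which were not taken as paired. Other alternatives were pseudocounts of 0.1 and 5, no filter, a filter at 5, quantile normalisation and values rescaled to a common sum. Fits of the groups compared alone and fits leaving out each library were also made.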

Additional observations from a re-analysis of the deposited data

Results flagged for a closer look

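The SIX2 sort and the GFP sort differed in 3 genes of the nephron lists by limma's test of the difference itself, and in none of the 7 segment genes tested. With the replicate block Osr2 was called (adjusted p = 0.0428, limma), and in the fit of these groups alone Pou3f3 was (adjusted p = 0.0416, limma). Wnt4, an inducer of nephrons, differed by -0.40 between SIX2+ and SIX2- cells and by 2.35 between GFP+ and GFP- cells, a difference of -2.76 (adjusted p = 0.0266, limma). Pax8 differed by -0.35 and 1.92 in the same order, a difference of -2.27 (adjusted p = 0.0218, limma). Cdh4, a cadherin, differed by 0.79 and 2.74, a difference of -1.94 (adjusted p = 0.0478, limma). Of all 12817 genes tested, 18 were called in that test.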

How the results depend on the processing

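No called difference of a segment gene reversed, while several uncalled ones changed sign, such as Irx2 (-1.09 to 0.08) and Irx5 (-0.73 to 0.18) in the GFP sort and Pou3f3 between SIX2- and NZC (-0.57 to 0.04). Of 783 recomputed values 739 kept their side of the threshold, 32 lost a call and 12 gained one. The number called was 4 of the 4 still tested in the SIX2 sort with a filter at 5, where fewer genes are tested, against 7. It was 3 in the GFP sort with a pseudocount of 5, against 5. Between SIX2- and NZC it was 0 with a pseudocount of 0.1, no filter, values rescaled to a common sum or only these groups, against 1. Between SIX2+ and GFP+ it was 1 with only these groups, against 0. For the difference between the sorts it was 1 with the replicate block and 1 with only these groups, against 0. At E14.5 it was 2 with no filter, 1 with a filter at 5 and 2 with quantile normalisation, against 4, and Irx5 was called once values rescaled to a common sum let it pass the filter (-1.42, adjusted p = 0.0353, limma). Without 1 library each the numbers ran from 6 to 7 in the SIX2 sort, 4 to 5 in the GFP sort, 6 to 7 for SIX2+ minus NZC, 0 to 1 for SIX2- minus NZC, 0 to 0 for SIX2+ minus GFP+ and for the difference between the sorts, 3 to 7 for SIX2- minus GFP- and 2 to 4 at E14.5. With the replicate block the comparison of SIX2- with GFP- cells, matched by number alone, called 5 in place of 4, adding Hnf4a (0.96, adjusted p = 0.0499, limma). The block changed no other call of a segment gene than this and that of Osr2. The E14.5 numbers (0.40 and 0.40) make only 2 pairs. The cause of these changes was not tested.

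Counts of all genes called moved more. They ran from 2077 to 4226 in the SIX2 sort (3109), 3071 to 5703 in the GFP sort (4219), 1879 to 5778 for SIX2+ minus NZC (4697), 21 to 2603 for SIX2- minus NZC (1424), 132 to 985 for SIX2+ minus GFP+ (394), 204 to 3266 for SIX2- minus GFP- (1296), 1 to 138 for the difference between the sorts (18) and 337 to 3336 at E14.5 (1044). Quantile normalisation gave 1578 higher and 1574 lower in the SIX2 sort, against 1073 and 2036, and 498 and 826 for SIX2- minus GFP-, against 730 and 566. At E14.5 it gave 239 and 483, against 151 and 893. Rescaling to a common sum gave 1397 and 2532 in the GFP sort, against 2035 and 2184, 1281 and 2668 for SIX2+ minus NZC, against 2320 and 2377, 157 and 612 for SIX2- minus NZC, against 661 and 763, and 225 and 649 for SIX2- minus GFP-. It moved the median of all tested genes from 0.10 to -0.06 for SIX2- minus GFP- and from -0.04 to -0.29 at E14.5, where the 4 called members remained below that median. Depth limits the E14.5 Tdt+ and the NZC library 2 values of low genes.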
